A study of Homo sapiens with 6 samples.

Results

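LTR10 and HERVIP10 are the long terminal repeats and the internal parts of human endogenous retroviruses of the HERV-I group, and 683 of their loci had at least 1 row in the deposited transposable element (TE) tables of SW480 cells. A locus was taken as a member when its TE name began with LTR10 and a letter or with HERVIP10. The 432 LTR10 and 251 HERVIP10 loci made up 0.828% of the 82446 LTR class loci with a row and belonged to the 728165 TE loci of all classes. SW480 is a line from a colon adenocarcinoma. It was transduced with a lentivirus and kept under antibiotic selection, carrying either pLENTI CMV Clover, a fluorescent protein used as control (3 libraries), or pLENTI CMV Z18trunc, a truncated form of the RNA-binding protein ZC3H18 (3 libraries). The CMV promoter drove both transgenes, the cells of both groups kept their own ZC3H18 gene, and according to the study's methods the lines were made in triplicate. RNA was selected on its poly(A) tail, so only polyadenylated RNA was measured. The comparison asks whether RNA of these retroviral loci differs when truncated ZC3H18 is present.

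A provirus consists of internal sequence between a pair of identical LTRs, and most copies in the genome have since been reduced by recombination to a single LTR. The U3 part of an LTR holds the promoter and enhancer from which retroviral RNA starts. LTR10A and LTR10F are known from colorectal cancer cells as enhancers that bind AP-1, the dimer of FOS and JUN family proteins, at the motif TGANTCA. ZC3H18 links the cap-binding complex to adaptors of the nuclear RNA exosome, which degrades nuclear RNA.

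The LTR10B1 at the end of a provirus inside the gene ZFAS1, which carries the largest share of the members' opposite-strand RNA below, is printed here over its first bases (minus strand, chr20:49287295-49287514, hg38 reference, 5′ to 3′ on the strand of the element). It is shown in lower case throughout because it holds no TGANTCA.
LTR10B1, chr20: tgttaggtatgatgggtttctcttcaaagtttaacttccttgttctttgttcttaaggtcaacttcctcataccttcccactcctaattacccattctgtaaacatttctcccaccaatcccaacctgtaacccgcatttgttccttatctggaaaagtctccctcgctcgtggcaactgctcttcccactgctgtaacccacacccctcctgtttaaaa

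The LTR10 subfamilies differed in how often they held the motif. TGANTCA is its own reverse complement, so a search of 1 strand covers both, and matches were allowed to overlap. It was found in 48 of 72 LTR10A loci (66.7%) and in 58 of 74 LTR10F loci (78.4%), against 16.9% of the 81763 other LTR class loci. LTR10G stood between, with 8 of 26 loci (30.8%). The remaining LTR10 subfamilies held almost none, with 1 of 119 LTR10C loci (0.840%), 1 of 30 LTR10D loci, 3 of 61 LTR10E loci, 2 of 23 LTR10B1 loci and 0 of the 10 LTR10B and 17 LTR10B2 loci. Over windows of equal length, the central 300 bases of loci at least that long, the motif was in 76.3% of LTR10A, 84.6% of LTR10F and 14.5% of other LTR class loci. The internal parts held it in 39.7% of HERVIP10B3-int, 48.8% of HERVIP10F-int and 25.3% of HERVIP10FH-int loci, which are longer (median 955, 1163 and 745 bp). In the central window those shares were 12.1%, 20.5% and 7.81%. A match is a string of letters and was not measured as a binding site.

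**Figure D1:**
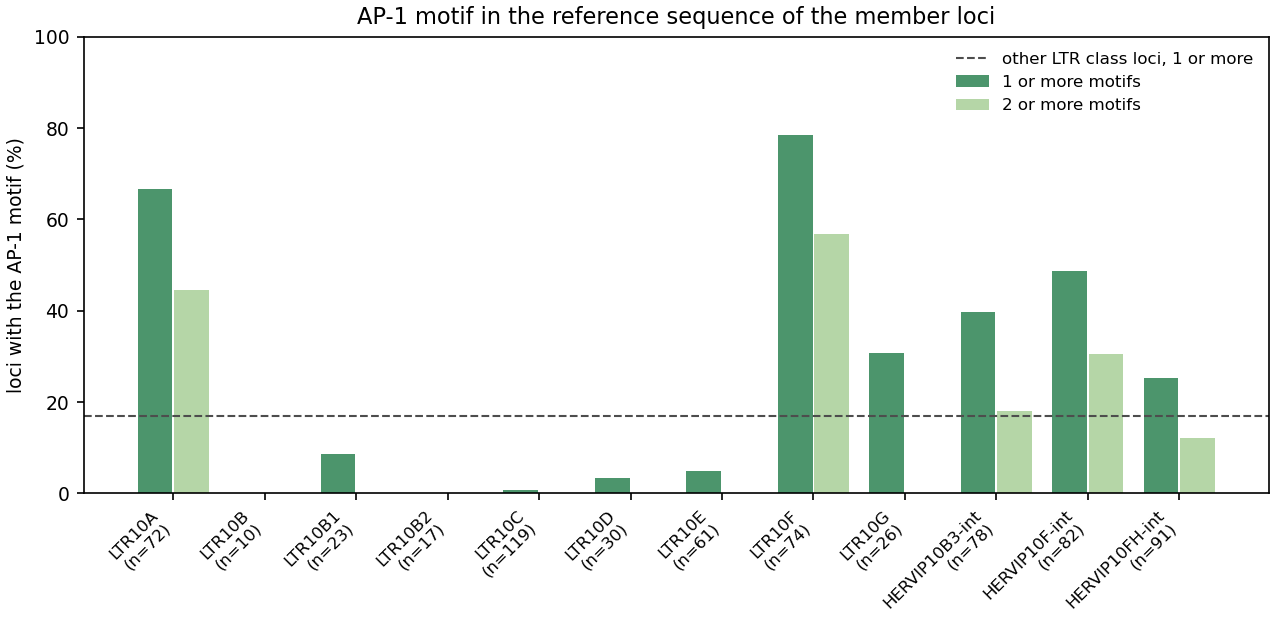
Share of loci with TGANTCA and with more than 1 copy of it, in percent, by subfamily and for the other LTR class loci. Shares are over the whole locus. LTR10A and LTR10F hold the motif in 66.7% and 78.4% of loci, and more than 1 copy in 44.4% and 56.8%. LTR10B, LTR10B2 and LTR10C are at or near 0.

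In LTR10F the motif came as a repeat. Of 74 LTR10F loci, 42 (56.8%) held more than 1 copy and the fullest held 8. Of the 89 gaps between neighbouring copies, 53 (59.6%) were exactly 28 bases from start to start. LTR10A held up to 5 copies, and 31 of its 54 gaps (57.4%) measured 27 to 29 bases. The first copy lay at a median position of 125 bases from the start of LTR10F loci and 192.5 bases from the start of LTR10A loci. Median lengths were 484 bases for LTR10F and 519 bases for LTR10A.

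**Figure D2:**
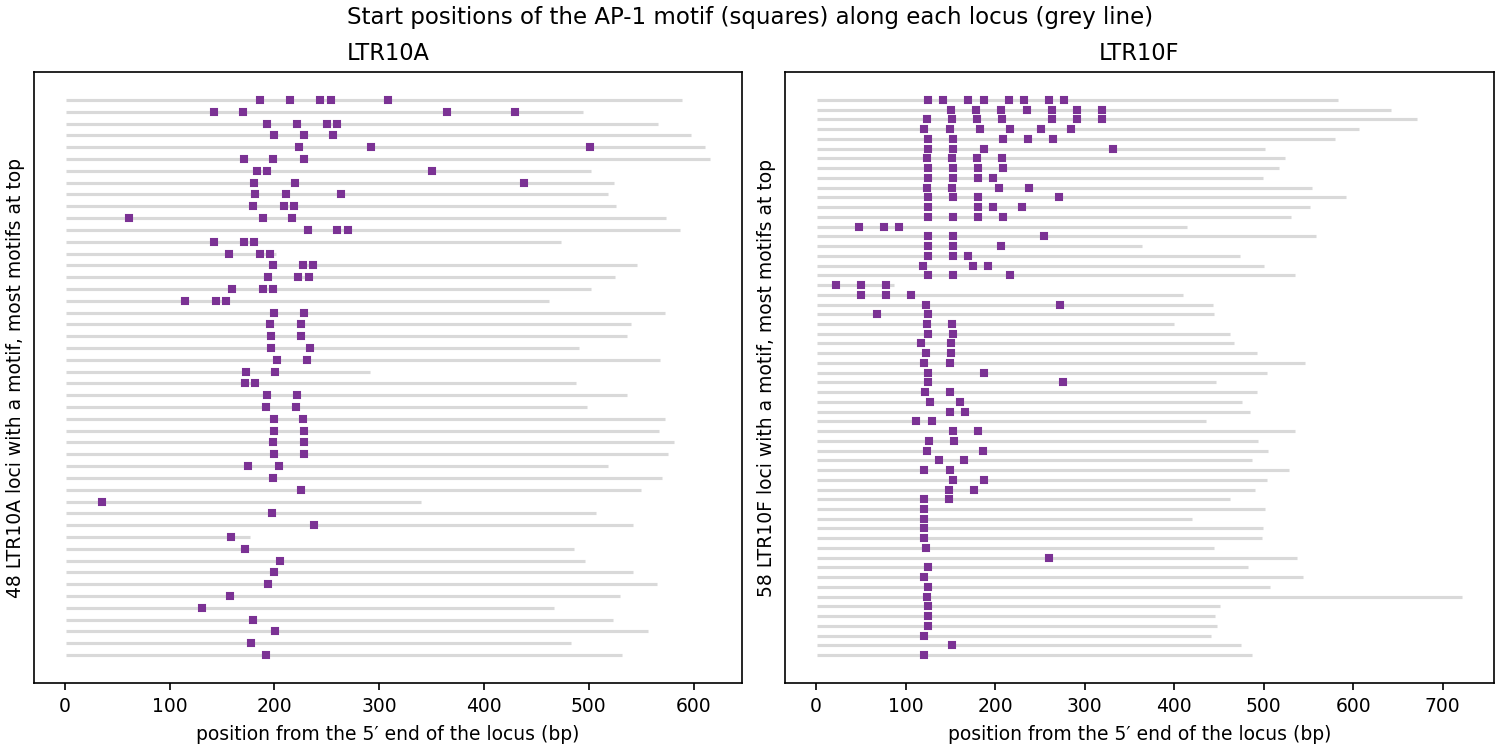
Position of each TGANTCA along the LTR10A and LTR10F loci, in bases from the start of the locus on the strand of the element. The first copy lies at a median of 125 bases in LTR10F and 192.5 bases in LTR10A.

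The members drew few fragments. SQuIRE divides reads that map to several places by expectation maximization, so its counts are estimates that need not be whole, and each library held 18226033 to 22463310 aligned fragments. A count of 0 therefore allowed up to 0.134 to 0.165 CPM, the count scaled to 1000000 aligned fragments (3 counts, counting error only). RNA on the strand of the element is called own-strand here, and RNA on the other strand opposite-strand. Own-strand rows existed for 346 members, opposite-strand rows for 425 and both for 88. Of the own-strand members, 52 had a row in all 6 libraries, 154 in 1 library, and 124 held at most 1 fragment in all. At least 30 counts over the 6 libraries, the minimum for a test, were reached by 26 members on the own strand (9 LTR10 and 17 HERVIP10) and by 27 on the opposite strand (9 and 18). Of 4380.39 own-strand counts, 70.5% came from uniquely mapped reads and 51.5% fell on 8 loci. Of 5387.17 opposite-strand counts, 71.3% were unique and 44.8% fell on 8 loci. Members within 1000 bp of each other merged into 461 elements, of which 58 held both LTR10 and HERVIP10 loci.

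The cells carried colon epithelial markers. KRT8, a simple-epithelium keratin, stood at 9394 to 10116 TPM, a length-scaled share of all gene RNA, and CDX2, the intestinal transcription factor, at 41.8 to 49.6 TPM, while 3 of 13 listed markers (KRT20, CDX1 and LGR5) were listed at 0 in every library. The melanocyte, blood, fibroblast and endothelial markers reached at most 3.60, 4.48, 1.55 and 0.503 TPM, with MLANA, TYR, PTPRC, DCN and PECAM1 at 0. ZC3H18, which counts the transgene and the cells' own gene together, stood at 57.2 ± 5.39 TPM in Clover and 763 ± 31.2 TPM in Z18trunc (SD, n = 3). In libraries from bulk cells, fewer expressing cells and less RNA per cell cannot be told apart. All TE RNA on the opposite strand outside exons also moved with the groups, at 12215, 10971 and 10217 CPM in Clover and 12356, 13592 and 14716 CPM in Z18trunc. When libraries were scaled to those counts, the median log2 difference of the tested members changed from 0.26 to -0.01 on the own strand and from 0.23 to -0.03 on the opposite strand.

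No single member passed the test between Z18trunc and Clover. On the own strand 0 of 26 tested members passed (edgeR quasi-likelihood test, Benjamini-Hochberg adjusted p under 0.05 over all tested TE loci), where 25 of 12453 TE loci (0.201%) and 12 of 2105 LTR class loci (0.57%) did. Before adjustment, 2 members lay above Clover and 1 below with p under 0.05, against 8.17% and 1.77% of all tested loci. DESeq2 gave an adjusted p for 1 of these members and called 0. The fitted log2 difference was above 0 in 19 and below 0 in 7, with a median of 0.26, a range of -0.65 to 1.20 and a median SE of 0.52. On the opposite strand 0 of 27 passed, where 7 of 12170 did (0.0575%), and DESeq2 gave an adjusted p for 2 and called 0. Before adjustment 5 members lay above Clover and 0 below with p under 0.05, against 7.65% and 1.57% of all tested loci. All 5 lie in 1 provirus inside ZFAS1, described below, which held 8 of the 27 tested members. The median log2 difference of the 27 was 0.23. The median over all tested TE loci was 0.17 on either strand, and TMM scaling, which brought that median to 0.00, left medians of 0.09 and 0.07 for the members. Among members of every depth, the FPKM of the 2 groups did not overlap in 16 of 346 on the own strand (10 higher and 6 lower in Z18trunc), where 3.31% of LTR class loci did not overlap. On the opposite strand this held for 12 of 425 (9 higher and 3 lower), where the share was 3.07%. By CPM instead of FPKM it held for 17 of 425 (15 higher and 2 lower), where 3.38% of LTR class loci did not overlap.

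**Figure D3:**
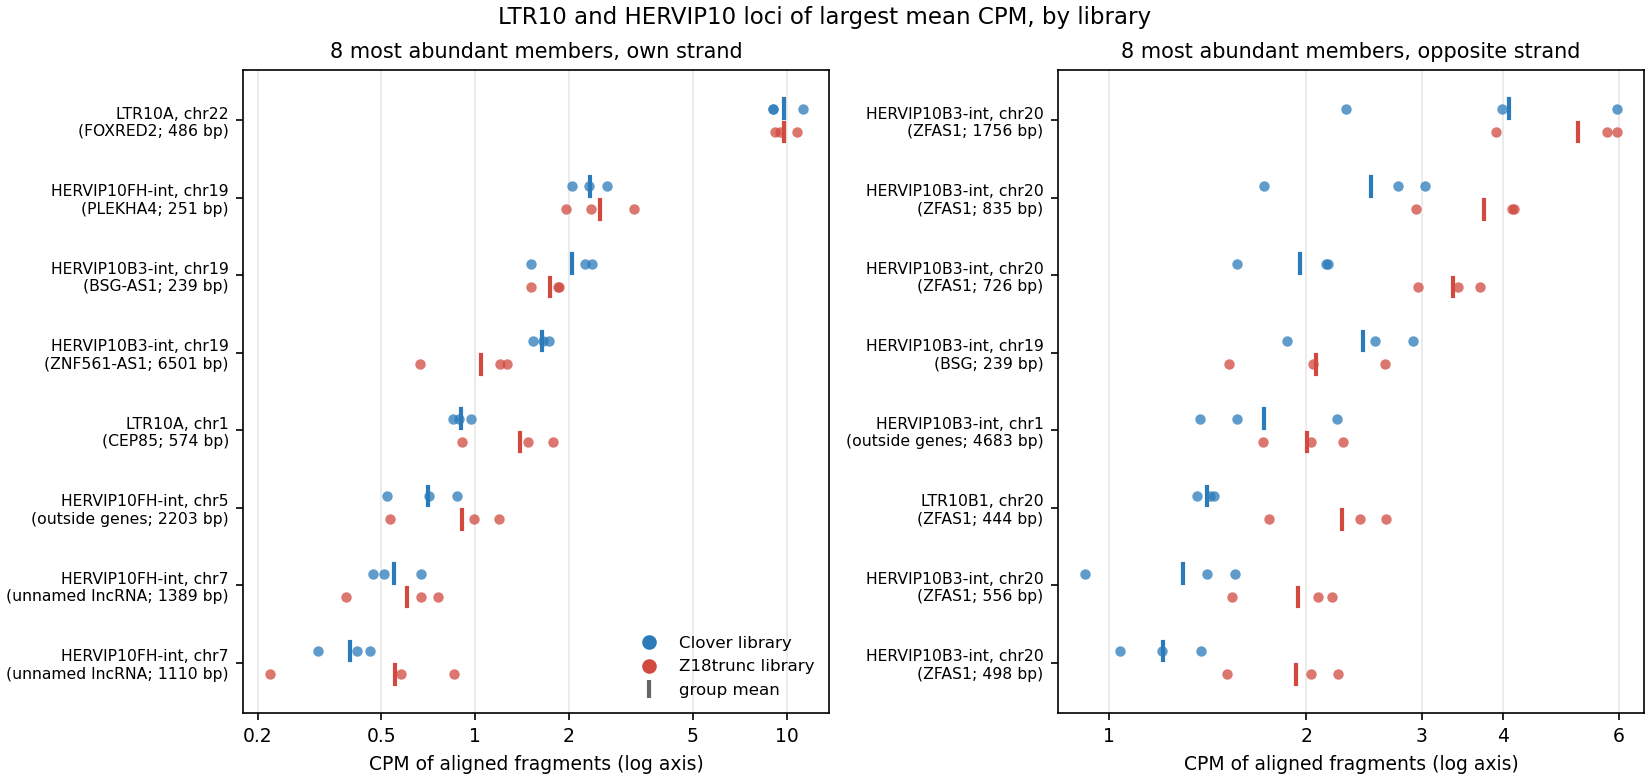
CPM of the 8 members of largest mean CPM in each library on a log axis, own strand at left and opposite strand at right, with blue points for Clover, red points for Z18trunc, bars for group means and genes named for the strand read. The ZNF561-AS1 locus is lower in every Z18trunc library, while 1 LTR10B1 and 2 HERVIP10B3-int loci in ZFAS1 are higher in every Z18trunc library, and the other loci overlap.

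The own-strand member with the most fragments lay in the last exon of FOXRED2. This LTR10A (minus strand, chr22:36487153-36487638) shares 449 of its 486 bases with that exon, in the UTR of the gene, and runs 37 bases past the gene's end. It counted 203, 215 and 177 fragments in Clover and 206, 196 and 199 in Z18trunc, which overlap. Its log2 difference was 0.01 (SE 0.14), with an edgeR adjusted p of 0.999. FOXRED2 itself, an oxidoreductase of the endoplasmic reticulum, had a log2(TPM + 1) difference of 0.07 (limma adjusted p = 0.604). This locus alone held 50.7% of all own-strand LTR10 counts.

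Further own-strand members also lay in exons of genes on the same strand, where RNA of the gene and of the element cannot be told apart. The HERVIP10FH-int at chr19:48868422-48868672 overlaps the first exon of PLEKHA4 and counted 52, 39 and 52 fragments in Clover and 53, 59 and 41 in Z18trunc (log2 difference 0.10, SE 0.23). The HERVIP10B3-int at chr19:571377-571615 sits between a divergent pair of genes, with 176 of its 239 bases in an exon of the antisense RNA BSG-AS1 on its own strand and 203 in the first exon of BSG, the immunoglobulin-family protein basigin, on the opposite strand. Its log2 difference was -0.22 on the own strand (SE 0.25) and -0.24 on the opposite strand (SE 0.24), and the groups overlapped on both. At chr19:9627910-9634410 the whole of a HERVIP10B3-int of 6501 bases is annotated as exon of the antisense RNA ZNF561-AS1. It counted 37, 33 and 30 fragments in Clover and 27, 23 and 14 in Z18trunc, so that every Z18trunc library lay below every Clover library. The log2 difference was -0.65 (SE 0.29; edgeR adjusted p = 0.444), the lowest of the tested own-strand members. The gene ZNF561-AS1 was likewise at 2.46, 2.62 and 2.52 TPM in Clover and at 1.80, 1.53 and 1.07 TPM in Z18trunc, without overlap, and did not pass (limma adjusted p = 0.0773).

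Outside exons, the members with the smallest unadjusted p were higher in Z18trunc. The LTR10A at chr1:1510898-1511404 lies outside genes and counted 5, 7 and 2 fragments in Clover and 9, 7 and 17 in Z18trunc. In CPM the groups did not overlap, and the log2 difference was 1.20 (SE 0.56; edgeR adjusted p = 0.474). A provirus at the end of ZNF552, a zinc finger gene on the same strand, holds the next pair, and 3 of its 9 loci overlap an annotated exon or intron of that gene. Its HERVIP10FH-int at chr19:57801628-57802442 counted 6.38, 6 and 6 fragments in Clover and 14, 14 and 9 in Z18trunc (log2 difference 1.02, SE 0.49, edgeR adjusted p = 0.489). The neighbour at chr19:57800290 counted 4, 7 and 9 against 17, 4 and 18, which overlap. Over the 9 loci of this run, HERVIP10FH-int between LTR10C, the sum was 31, 25 and 24 fragments in Clover and 50, 38 and 48 in Z18trunc. In CPM this was 1.38, 1.31 and 1.22 against 2.23, 2.08 and 2.29, without overlap, and an exact two-sided permutation test gave p = 0.1. For 3 against 3 libraries 0.1 is the smallest p that this test can give, so none of its results can reach 0.05. The run was looked at because that pair of loci had a small p in the same libraries. Its sum includes them, so the separation of the sum adds no independent support. ZNF552 had a log2(TPM + 1) difference of 0.34 (limma adjusted p = 0.185).

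The LTR10A at chr1:26268832-26269405 lies in CEP85, a centrosomal protein gene, with 75 of its bases in an exon. It counted 19, 17 and 19 fragments in Clover and 40, 27 and 19 in Z18trunc (log2 difference 0.63, SE 0.31, edgeR adjusted p = 0.511), and only 49.6% of its counts were unique. A chromosome 5 provirus flanked by an LTR10F at either end has no annotated gene on its own strand and overlaps ST13P12 on the other strand. Its HERVIP10FH-int at chr5:82973391-82975593 counted 16, 10 and 17.21 fragments in Clover and 12, 18 and 25 in Z18trunc, with a log2 difference of 0.35 (SE 0.38). Its 7-motif LTR counted 1, 3 and 4 fragments against 0, 2 and 6, and its 4-motif LTR 0, 0 and 0 against 3, 1 and 0. Neither LTR reached the minimum for a test. A pair of HERVIP10FH-int loci at chr7:103154403 and chr7:103153306, in an intron of an unnamed long noncoding RNA, had log2 differences of 0.14 (SE 0.42) and 0.50 (SE 0.49), with overlapping groups.

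On the opposite strand 1 provirus held 41.4% of all member counts. It spans chr20:49281111-49287514 on the minus strand, with 7 HERVIP10B3-int loci between a pair of LTR10B1 loci, inside ZFAS1 on the plus strand. ZFAS1 is a long noncoding RNA that hosts small nucleolar RNAs. The provirus was thus read in the direction of ZFAS1, with 2229.12 counts against 2 on its own strand, and 73.0% of the counts were unique. Only 2 of the 9 loci overlap a ZFAS1 exon, and the loci diverge from their consensus by 16.1 to 25.2%. The sum was 412, 212 and 292.01 fragments in Clover and 441, 368.11 and 504 in Z18trunc. In CPM this was 18.3, 11.1 and 14.9 against 19.6, 20.2 and 24.0, with every Z18trunc library above every Clover library (exact permutation p = 0.1).

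All 9 loci were higher in mean in Z18trunc, and 3 did not overlap between the groups. These neighbouring loci are read along 1 stretch of RNA and are not independent of each other. The HERVIP10B3-int at chr20:49286345 counted 48.52, 30 and 42 fragments in Clover and 82.6, 54 and 71.5 in Z18trunc, a log2 difference of 0.77 (SE 0.21), and had the smallest edgeR adjusted p of the tested opposite-strand members, 0.231. The adjoining LTR10B1 at chr20:49287071-49287514 counted 32.48, 26 and 28 against 39.4, 44 and 55.5, a log2 difference of 0.69 (SE 0.25; edgeR adjusted p = 0.405). The HERVIP10B3-int at chr20:49285787 counted 31, 23 and 20.37 against 34, 37 and 47, a log2 difference of 0.67 (SE 0.27). The locus with the most counts, chr20:49282371, overlapped, at 134, 44 and 78.01 against 129.23, 71 and 125 (log2 difference 0.34, SE 0.22). Clover replicate 2 gave the lowest provirus sum of the 6 libraries.

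ZFAS1 itself did not share the direction. It stood at 289, 293 and 291 TPM in Clover and at 240, 232 and 292 TPM in Z18trunc, which overlap, with a log2(TPM + 1) difference of -0.20 (SE 0.10; limma adjusted p = 0.245). Provirus CPM per ZFAS1 TPM was 0.0635, 0.0379 and 0.0511 in Clover and 0.0820, 0.0872 and 0.0822 in Z18trunc, without overlap (exact permutation p = 0.1). Other LTR class loci in introns read on the opposite strand were also higher in Z18trunc, without overlap. Their sum was 1257, 1061 and 1040 CPM in Clover and 1304, 1415 and 1577 CPM in Z18trunc. The log2 ratio of group mean CPM was 0.36, where the provirus had 0.53. The part of that shared intronic shift in the provirus result was not tested.

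**Figure D4:**
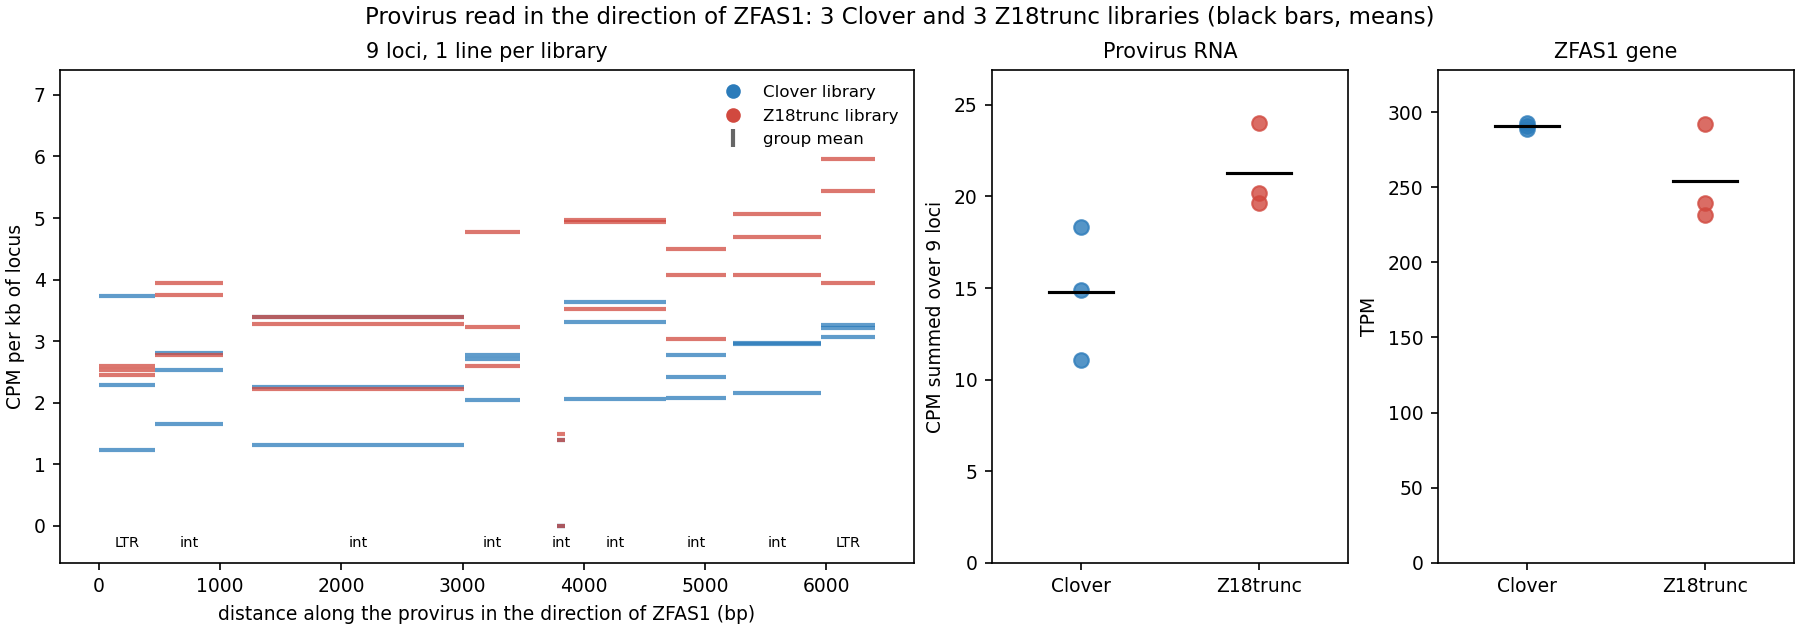
The provirus in ZFAS1 read in the direction of the gene: CPM per kb of each of its 9 loci by distance along the provirus (1 line per library), the provirus sum in CPM and ZFAS1 in TPM, with blue for Clover, red for Z18trunc and black bars for means. Provirus sums are 11.1 to 18.3 CPM in Clover and 19.6 to 24.0 CPM in Z18trunc, while ZFAS1 overlaps.

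A further opposite-strand provirus, 4 loci of LTR10E and HERVIP10F-int outside genes at chr1:31457949-31467319, also separated. It counted 6, 11 and 10 fragments in Clover and 17, 14 and 21 in Z18trunc (log2 ratio of mean CPM 0.90, exact permutation p = 0.1). This run fell outside the naming rule for loci and was picked after seeing the data. How many runs of other LTR class loci separate was not counted. The 7 loci of HERVIP10B3-int, LTR10B1 and LTR10B2 downstream of GEMIN5, a gene of the SMN complex that assembles spliceosomal particles, counted 98, 82 and 88 fragments in Clover and 77, 97 and 91 in Z18trunc (log2 ratio of mean CPM -0.01). The HERVIP10B3-int at chr1:45756384-45761066, outside genes, counted 50, 30 and 27 against 51, 37 and 36 (log2 difference 0.21, SE 0.25).

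Summed per subfamily, 0 of 10 tested subfamilies passed on the own strand (1.89% of all TE subfamilies did; 0 of the 10 had an unadjusted edgeR p under 0.05, as 24.6% of all did) and 1 of 11 on the opposite strand (12.6% did; 2 of the 11 had an unadjusted edgeR p under 0.05, as 31.7% of all did). The opposite-strand count over all TE subfamilies, 114 of 903, was 256 without Clover replicate 1 and 1 without Clover replicate 2. The LTR10 or HERVIP10 subfamily that passed on the opposite strand with all 6 libraries was HERVIP10B3-int, the internal part paired with the LTR10B group. It stood at 26.4, 19.6 and 22.1 CPM in Clover and 25.9, 28.8 and 29.9 CPM in Z18trunc, so that Clover replicate 1 overlapped with Z18trunc replicate 1. The log2 difference was 0.31 (SE 0.11; edgeR adjusted p = 0.0392). The ZFAS1 provirus supplied 59.4% of its counts. Without the 9 loci of that provirus, an alternative chosen after seeing the data, the log2 difference was -0.02 (SE 0.14; edgeR adjusted p = 0.945) and 0 of the LTR10 and HERVIP10 subfamilies passed. The call was also lost under TMM scaling (log2 difference 0.07, edgeR adjusted p = 0.835), under which 0 TE subfamilies were called higher and 4 lower in place of 114 and 0. It was lost as well without Clover replicate 2, Clover replicate 3, Z18trunc replicate 2 or Z18trunc replicate 3 (edgeR adjusted p = 0.291, 0.161, 0.197 and 0.226).

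Neither motif-rich subfamily passed on either strand, and the difference between them was not tested. Own-strand LTR10F had a log2 difference of 0.62 (SE 0.35, edgeR adjusted p = 0.267). It was at 0.712, 0.575 and 0.560 CPM in Clover and 0.757, 0.878 and 1.24 CPM in Z18trunc, without overlap, on 96.94 counts in all. Of those counts, 92.94 fell on the 28 loci with a TGANTCA, which leaves no group of LTR10F loci without the motif to compare with. LTR10A on its own strand was at 11.9 ± 1.40 and 12.7 ± 0.754 CPM (SD, n = 3), a log2 difference of 0.09 (SE 0.13). Of the LTR10A counts, 79.6% were the FOXRED2 locus. Its 24 loci with the motif had 11.6 ± 1.43 and 12.4 ± 0.667 CPM (exact permutation p = 0.4) and its 16 loci without it held 36 counts. On the opposite strand both subfamilies overlapped, with log2 differences of 0.01 for LTR10A and 0.21 for LTR10F.

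Of the others on the own strand, HERVIP10FH-int was at 7.30, 6.66 and 7.64 CPM in Clover and 8.15, 8.67 and 9.53 CPM in Z18trunc, without overlap (log2 difference 0.28; edgeR adjusted p = 0.206). LTR10E was also without overlap (0.42), and LTR10G lay lower in Z18trunc without overlap, on 46 counts (-0.39). LTR10C, whose loci diverge least from their consensus among the LTR10 subfamilies (median 5.8%), differed by -0.02, HERVIP10B3-int by -0.15, HERVIP10F-int by 0.16, LTR10D by 0.12 and LTR10B2 by 0.52, all with overlapping groups. Opposite-strand LTR10B1 differed by 0.46 and had an edgeR adjusted p of 0.0907, and without the ZFAS1 provirus it differed by 0.70 (SE 0.51; edgeR adjusted p = 0.339) on 45 counts. LTR10C (0.34) and LTR10E (0.32) did not overlap on the opposite strand. HERVIP10F-int (0.35), HERVIP10FH-int (0.23), LTR10G (0.62), LTR10D (0.17) and LTR10B2 (0.16) overlapped there. Over all tested TE subfamilies, the log2 difference was above 0 in 84.3% on the own strand and 88.8% on the opposite strand. How many of all TE subfamilies did not overlap was not counted. The separations of single subfamilies, LTR10F included, therefore cannot be called particular to the members.

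**Figure D5:**
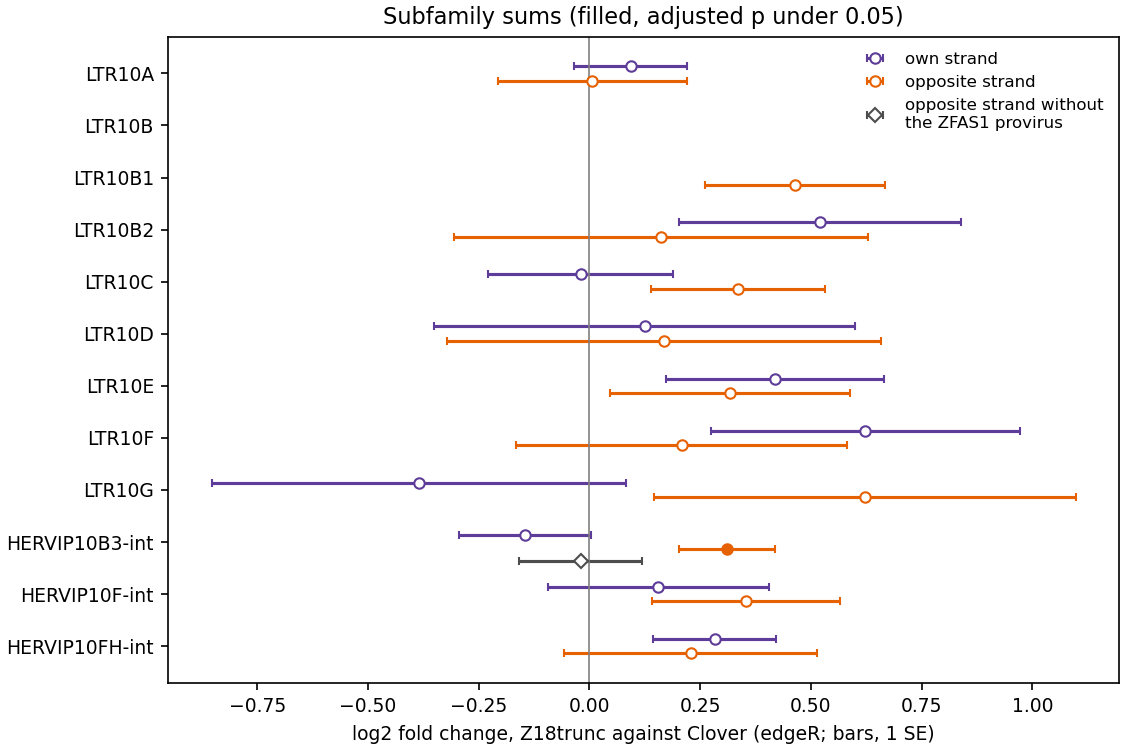
Log2 difference between Z18trunc and Clover for each tested subfamily on the own and the opposite strand, with bars of 1 standard error from edgeR. A filled point passed the test, and the grey diamond is opposite-strand HERVIP10B3-int without the ZFAS1 provirus. The filled point is HERVIP10B3-int at 0.31 on the opposite strand, and the diamond lies at -0.02; sums under 30 counts have no point.

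For the sums over each family, own-strand LTR10 was at 18.2 ± 1.80 CPM in Clover and 20.2 ± 0.807 CPM in Z18trunc (SD, n = 3), a log2 ratio of 0.15 with overlap (exact permutation p = 0.3). Without Clover replicate 2 it was 0.24, without overlap, and without any other single library it was 0.10 to 0.18, with overlap. Without the FOXRED2 locus, an alternative chosen after seeing the data, the sums were 8.46 ± 0.552 and 10.4 ± 0.239 CPM and did not overlap (log2 ratio 0.30, exact permutation p = 0.1). Own-strand HERVIP10 was at 15.9 ± 0.139 and 17.1 ± 1.42 CPM, a log2 ratio of 0.10 (exact permutation p = 0.1), which was 0.034 without Z18trunc replicate 3. All other LTR class loci had a log2 ratio of 0.21 on the own strand and 0.24 on the opposite strand, without overlap on either. Opposite-strand LTR10 was at 12.4 ± 2.01 and 15.3 ± 1.49 CPM and HERVIP10 at 26.7 ± 3.80 and 33.2 ± 3.12 CPM, log2 ratios of 0.30 and 0.32 (both exact permutation p = 0.2). Without the ZFAS1 provirus HERVIP10 was at 14.4 ± 1.20 and 15.3 ± 2.46 CPM, a log2 ratio of 0.09, and LTR10 at 9.85 ± 1.46 and 11.8 ± 1.04 CPM, a log2 ratio of 0.27. Exons took 56.5% of own-strand member counts and 56.3% of own-strand LTR class counts. On the opposite strand they took 20.7% against 44.2%, and introns held most member counts, largely through the ZFAS1 provirus. Without it the opposite-strand HERVIP10 intron sum was 3.62 rather than 14.6 CPM in Clover and 4.43 rather than 20.3 CPM in Z18trunc. The LTR10 intron sum was 4.15 rather than 5.56 CPM in Clover and 5.42 rather than 7.69 CPM in Z18trunc.

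The AP-1 genes, whose proteins bind TGANTCA, did not pass the test either. Of 20 listed, 19 were tested and 0 called, where 2 of 13300 genes were (limma on log2(TPM + 1), 0.015%), and 10 were higher and 9 lower. FOS stood at 214 to 268 TPM and FOSL1 at 222 to 262 TPM over the 6 libraries, and JUN, JUNB and JUND overlapped between the groups as well. ATF2 (0.39, limma adjusted p = 0.0923) and ATF3 (0.35, limma adjusted p = 0.145) were the 2 of 19 with an unadjusted p under 0.05. Both were higher in Z18trunc, as were 25.6% of all tested genes at that p. Of 7 genes reported near LTR10 enhancers in earlier work on colorectal cancer, 6 were tested, 0 were called and 6 were higher in Z18trunc, 4 of them at an unadjusted p under 0.05, as 25.6% of all genes were. ATG12, an autophagy conjugation protein, was at 17.9, 14.1 and 18.3 TPM in Clover and 22.3, 22.3 and 23.0 TPM in Z18trunc (limma adjusted p = 0.0846). XRCC4, a DNA end-joining protein whose gene starts at chr5:83077409, was at 4.98, 3.93 and 5.58 TPM in Clover and 7.46, 6.53 and 6.92 TPM in Z18trunc (limma adjusted p = 0.0841). After quantile normalization the median log2 difference of these 6 genes was 0.13 rather than 0.24, and 5 of them were higher. Over all 13300 tested genes the median was -0.006 rather than 0.11. FGF2 was listed at 0.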

How the data were processed

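Poly(A)-selected, stranded RNA-seq of 6 SW480 libraries (3 Clover, 3 Z18trunc) was used. The authors trimmed reads with cutadapt 4.6 (submitters' processing notes) and ran SQuIRE on hg38. The deposited TE tables hold an estimated count (total), a whole-number count of uniquely mapped fragments and FPKM per locus and strand, and the deposited gene tables hold TPM and FPKM. Members and gene lists were chosen with earlier results of these data known. Missing rows were set to 0, CPM was taken per aligned fragment, and rounded estimated counts of loci with at least 30 counts were tested with edgeR 4.0.16 (R 4.3.3) without further scaling. Genes with a mean of at least 1 TPM were tested with limma 3.58.1 on log2(TPM + 1), which understates changes of low genes. Single sums had exact two-sided permutation tests. Named loci were the 8 of largest mean CPM per strand and the 5 of smallest own-strand p. Contexts came from GENCODE 44. The tests were checked on simulated data. Alternatives included DESeq2 1.42.0, TMM, minimum counts of 10 and 100, unique counts, the replicate block and leaving out each library. All 4 TE classes (LTR, LINE, SINE and DNA) entered the adjustment. Replicate libraries differed by more than counting noise. The sequences of some loci are not reported here.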

Additional observations from a re-analysis of the deposited data

How the results depend on the processing

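No member locus passed on either strand under any alternative, and no own-strand subfamily did. The number of opposite-strand subfamilies that passed, 1, was 0 under TMM scaling, scaling to opposite-strand counts and the replicate block and without the ZFAS1 provirus, and ranged from 0 to 2 when single libraries were left out. DESeq2 gave no adjusted p for them. Over all TE subfamilies on the opposite strand, 114 calls became 4 under TMM scaling, 6 under scaling to opposite-strand counts, 3 in DESeq2 and 0 with the replicate block; on the own strand 17 became 3, 1, 6 and 7. Over loci, 25 own-strand calls became 7, 6, 18 and 35, and 7 opposite-strand calls became 2, 3, 11 and 2. The replicate numbers did not pair the libraries, judged by the log2 CPM of each library after its group mean was subtracted. Same-numbered libraries of the 2 groups then had correlations of -0.038 to -0.0073 over own-strand loci and -0.026 to -0.0022 over opposite-strand loci. Over subfamily sums they were -0.17 to -0.040 on the own strand and -0.024 to 0.037 on the opposite strand.

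Log2 ratios of own-strand sums moved to -0.026 (LTR10) and -0.078 (HERVIP10) relative to TE counts of both strands and to 0.27 and 0.25 without the 3 members of most counts. LTR10 moved to 0.30 without the FOXRED2 locus and HERVIP10 to 0.27 outside exons. The opposite-strand HERVIP10 sum moved to 0.14 relative to TE counts and to 0.088 without the ZFAS1 provirus. With at least 30 counts, 3 of 26 own-strand members (11.5%) did not overlap, where 14.3% of LTR class loci did not. On the opposite strand 4 of 27 (14.8%) did not overlap, where the share was 14.0%.

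The sign changed for the following values, and the causes were not tested. Under TMM scaling and scaling to opposite-strand counts these were the LTR10A locus in FOXRED2 (-0.17 and -0.28), HERVIP10FH-int at chr19:48868422 (-0.072 and -0.18) and at chr7:103154403 (-0.027 and -0.13), own-strand HERVIP10F-int (-0.052 and -0.13), LTR10A (-0.11 and -0.19) and LTR10D (-0.067 and -0.15), and opposite-strand HERVIP10FH-int (-0.0088 and -0.050), LTR10A (-0.23 and -0.27), LTR10B2 (-0.070 and -0.11), LTR10D (-0.069 and -0.11) and LTR10F (-0.034 and -0.077). Scaling to opposite-strand counts alone turned HERVIP10B3-int at chr1:45756384 (-0.050) and own-strand HERVIP10FH-int (-0.0019). DESeq2 turned the FOXRED2 locus (-0.16) and own-strand LTR10A (-0.11). Uniquely mapped counts turned own-strand HERVIP10F-int (-0.055) and LTR10C (0.063). Quantile normalization turned the gene FOXRED2 (-0.026), and leaving out the ZFAS1 provirus turned opposite-strand HERVIP10B3-int (-0.020).

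Leaving out single libraries gave -0.065 to 0.12 for the LTR10A locus in FOXRED2, -0.11 to 0.25 for HERVIP10FH-int at chr19:48868422 and -0.047 to 0.37 at chr7:103154403. On the own strand it gave -0.10 to 0.39 for HERVIP10F-int, -0.10 to 0.078 for LTR10C and -0.31 to 0.41 for LTR10D. On the opposite strand it gave -0.13 to 0.24 for LTR10A, -0.15 to 0.60 for LTR10B2, -0.33 to 0.82 for LTR10D and -0.36 to 0.54 for LTR10F. The median SE of the tested loci was 0.52 on the own and 0.38 on the opposite strand (log2 scale).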
